A study of Mus musculus with 45 samples.

Results

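The change between 2 h and 4 h of combined treatment with interferon-γ (IFN-γ, 100 ng/ml) and interleukin-4 (IL-4, 10 ng/ml) was measured in mouse bone-marrow-derived macrophages. It rests on 6 of the 45 samples of the series, namely 3 poly(A) RNA-seq libraries taken after 2 h and 3 taken after 4 h. The cells were primary macrophages of C57BL/6 mice, used on the 7th day of differentiation in medium conditioned by L929 fibroblasts, a source of macrophage growth factor. No genotype, sex or age of the donor mice is given. Within this comparison every library received both cytokines, so it describes how the combined response moved on and not how it departed from resting cells. Untreated cells and cells given IFN-γ (100 ng/ml) or IL-4 (10 ng/ml) alone for 2 h or 4 h, each with 3 libraries, serve as reference levels. The 24 other libraries of the series, from cells carrying short hairpin RNAs, were not analysed here.

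IFN-γ signals through JAK1 and JAK2 to factors of the STAT family, which drive a first set of genes including the transcription factor IRF1, and these factors then act on later targets such as the guanylate-binding proteins and the antigen-presentation machinery. IL-4 signals through JAK1 and JAK3 to STAT6 and drives genes of alternative activation such as Arg1, Retnla and Pdcd1lg2. Macrophages exposed to both receive opposing instructions, and feedback inhibitors of the SOCS family damp both pathways.

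Values are CPM, read counts scaled to a common library total, rescaled between libraries by the median ratio over genes. A value after ± is the standard deviation for CPM and the standard error for a log2 change, with n = 3 libraries per group. Changes are differences of log2(CPM + 1) at 4 h minus 2 h, which understate the change of genes at low levels, and rises and falls are calls at a limma adjusted p under 0.05. Depth ran from 38.0 to 58.5 M reads per library. Ribosomal RNA (Rn45s) took 0.111% to 1.2% of the reads at 2 h and 0.246% to 3.21% at 4 h, the highest share being in replicate 3 at 4 h. In the untreated libraries it took 0.151%, 43.2% and 15.7% in replicates 1 to 3. Untreated means are therefore rough reference levels, and the untreated libraries were left out of the fit. Replicates carrying the same number deviated together, and the number was kept as a block in the fit. Nothing in the labels ties a replicate to an animal or a culture of its own, so the p-values weigh changes against a spread that could be technical.

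The transcriptome moved widely in both directions between 2 h and 4 h. Of 11380 genes tested, 2672 rose (23.5%) and 2753 fell (24.2%), and 5306 of these 5425 moved in the direction of the call in all 3 pairs. The calls come from these same pairs, so that agreement is not separate support for them. Most changes were small. A log2 change of at least 1 was reached by 338 rising genes (2.97%) and 257 falling genes (2.26%), and a change of at least 2 by 46 and 24. On the deposited CPM without rescaling, the split was 1741 higher and 3648 lower, since that scaling moves the median gene by -0.103. Without the replicate block 1034 genes were higher and 946 lower, and without the pair of replicate 3 the counts were 1453 and 1501.

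**Figure D1:**
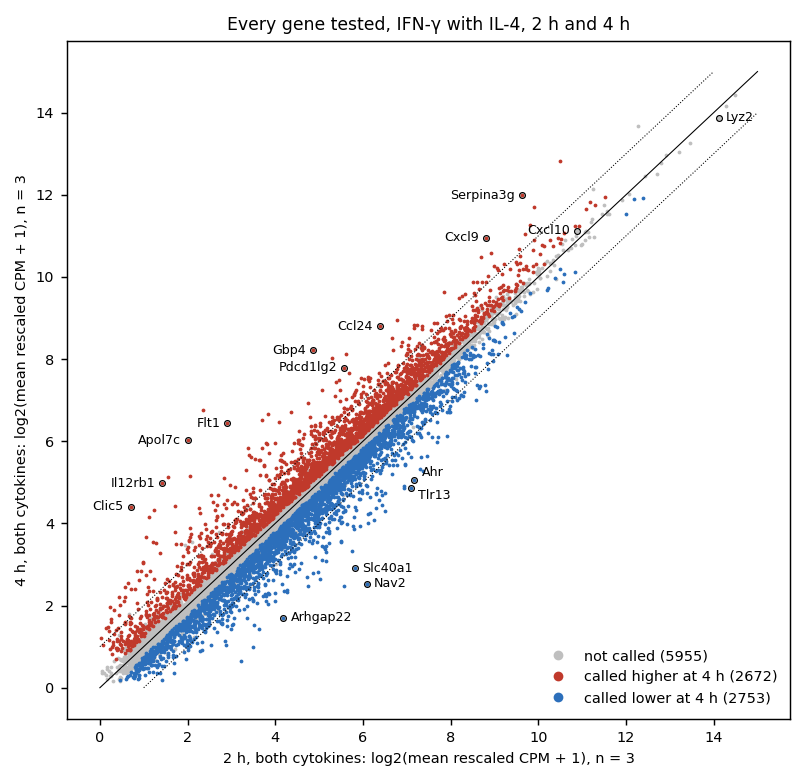
Mean level of each of the 11380 tested genes at 2 h (x axis) and 4 h (y axis) of both cytokines, both as log2(mean rescaled CPM + 1) over 3 libraries. The solid line marks equal levels and the dotted lines a difference of 1; 2672 genes called higher are red, 2753 called lower are blue, and Gbp4, Flt1, Apol7c, Nav2 and Slc40a1 lie far from the line.

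Most of the largest rises were in genes below 1 CPM in untreated cells that were still low at 2 h. Apol7c, a member of the apolipoprotein L family (chr15:77524852-77533316 on GRCm38, minus strand), measured 6.03, 1.79 and 1.29 CPM at 2 h in replicates 1 to 3 and 125, 31.1 and 35.7 CPM at 4 h. All 4 h libraries lay above all 2 h libraries, with replicate 1 the highest at both times. Its log2 change of 3.90 ± 0.275 was the largest among the genes named here (adjusted p = 6.1e-08). Il12rb1, a subunit of the receptor for IL-12 and IL-23 (chr8:70808449-70821424), measured 2.01, 1.69 and 1.35 CPM at 2 h and 34.1, 29.4 and 28.4 CPM at 4 h. The replicates were close at both times, and the log2 change was 3.56 ± 0.10 (adjusted p = 1.1e-11). Flt1, a receptor for vascular endothelial growth factor, measured 6.43, 6.79 and 6.34 CPM at 2 h and 102, 59.5 and 95 CPM at 4 h. The log2 change of Flt1 was 3.49 ± 0.184. Clic5, an intracellular chloride channel protein, was at 0.591, 0.603 and 0.719 CPM at 2 h, which is the untreated level of 0.59 CPM, and at 19, 16.1 and 25.6 CPM at 4 h. Its log2 change was 3.67 ± 0.114.

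Further down the same order stood Ptgs2, which encodes the prostaglandin synthase COX-2. It measured 3.78, 0.583 and 1.46 CPM at 2 h and 75.8, 9.2 and 16.4 CPM at 4 h, so that replicate 1 stood well above the others, and its log2 change was 3.17 ± 0.358. Upp1, a uridine phosphorylase, rose from 1.18 ± 0.735 to 16.9 ± 5.18 CPM. The thrombin receptor F2r rose from 3.17 ± 1.42 to 34.3 ± 18.6 CPM, with replicate 2 the lowest at both times. Cnn3, an actin-binding calponin, rose from 13.3 ± 3.01 to 99.9 ± 23.2 CPM. Edn1, the precursor of the vasoconstrictor peptide endothelin-1, measured 2.06, 2.87 and 1.94 CPM at 2 h and 18.6, 24.6 and 18.4 CPM at 4 h. This gave a log2 change of 2.71 ± 0.318.

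**Figure D2:**
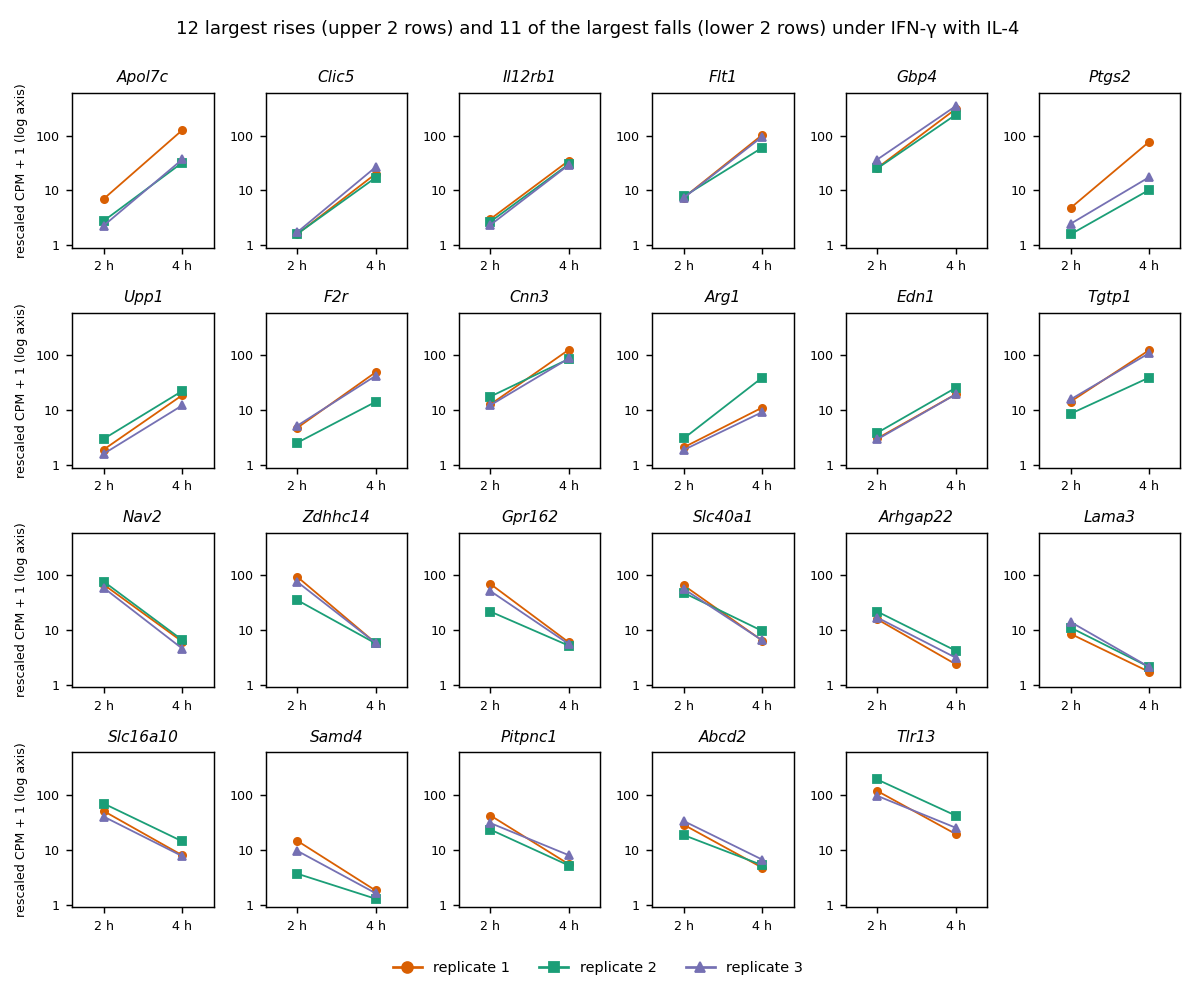
Rescaled CPM + 1 on a log axis at 2 h and 4 h of both cytokines for the 12 largest rises (upper panels) and 11 of the largest falls (lower panels), with a line for each replicate number. All 3 lines of a panel run in the same direction because the genes were chosen on that condition. In every panel the 2 h and 4 h values do not overlap, which held for 3645 of the 11380 tested genes.

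The bases before the start of 5 genes that rose are shown as examples that hold letters STAT and interferon regulatory factors are known to bind, and they were chosen for these matches. Of 28 genes searched among the fixed genes and the largest rises and falls, 16 held none of the motifs named next nor the AP-1 motif TGANTCA, Flt1, Clic5, Ptgs2 and Irf4 among them. They are the 250 bases before the RefSeq start (GRCm38.p6), read 5′ to 3′ on the gene's strand. Capitals mark matches to TTCNNNGAA (the gamma-activated site), TTCNNNNGAA (the form with a longer spacer that STAT6 prefers) or GAAANNGAA (the core of the interferon-stimulated response element), each searched on both strands; matches of different kinds may overlap. RefSeq gives 2 starts for Irf8, and the first is shown. Irf8 lies at chr8:120736108-120736357 (plus strand), Pdcd1lg2 at chr19:29410669-29410918 (plus), Apol7c at chr15:77533316-77533565 (minus), Edn1 at chr13:42301226-42301475 (plus) and Cxcl9 at chr5:92328080-92328329 (minus).
Irf8: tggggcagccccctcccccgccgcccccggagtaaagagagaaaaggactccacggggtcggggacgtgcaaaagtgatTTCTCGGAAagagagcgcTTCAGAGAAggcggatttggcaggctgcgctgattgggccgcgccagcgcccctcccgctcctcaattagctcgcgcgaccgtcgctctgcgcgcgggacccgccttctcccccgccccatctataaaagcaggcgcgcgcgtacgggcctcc
Pdcd1lg2: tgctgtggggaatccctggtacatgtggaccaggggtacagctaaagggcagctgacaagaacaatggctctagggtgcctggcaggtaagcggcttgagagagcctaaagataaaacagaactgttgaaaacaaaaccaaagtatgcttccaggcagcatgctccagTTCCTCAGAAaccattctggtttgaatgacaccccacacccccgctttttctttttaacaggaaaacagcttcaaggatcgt
Apol7c: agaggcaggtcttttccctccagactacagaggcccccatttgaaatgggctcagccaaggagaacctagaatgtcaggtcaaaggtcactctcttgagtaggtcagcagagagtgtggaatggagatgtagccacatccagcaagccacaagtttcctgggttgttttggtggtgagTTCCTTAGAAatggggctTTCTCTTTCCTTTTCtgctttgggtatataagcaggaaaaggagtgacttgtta
Edn1: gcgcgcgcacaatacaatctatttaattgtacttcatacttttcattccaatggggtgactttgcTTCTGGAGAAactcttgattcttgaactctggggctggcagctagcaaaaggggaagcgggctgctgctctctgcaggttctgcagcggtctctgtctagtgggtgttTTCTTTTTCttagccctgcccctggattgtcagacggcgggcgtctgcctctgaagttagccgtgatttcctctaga
Cxcl9: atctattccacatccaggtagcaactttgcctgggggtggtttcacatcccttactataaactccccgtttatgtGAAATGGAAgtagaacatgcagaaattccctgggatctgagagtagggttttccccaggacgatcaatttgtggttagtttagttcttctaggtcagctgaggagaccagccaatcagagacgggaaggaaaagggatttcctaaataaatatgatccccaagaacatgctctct

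Irf8 held the gamma-activated site at 171 and 153 bases before its start, Pdcd1lg2 the STAT6 form at 82 bases, and Apol7c the STAT6 form at 72 bases with overlapping interferon-response cores at 54 and 48 bases. Edn1 held the STAT6 form at 185 bases and the interferon-response core at 77 bases, and Cxcl9 the interferon-response core at 175 bases. Among promoters of genes that rose by a log2 change of at least 1, 10.1% held the gamma-activated site, 6.75% the STAT6 form and 11.7% the interferon-response core. Among promoters of all tested genes the shares were 6.03%, 4.78% and 6.41%, and among all promoters given by RefSeq they were 7.02%, 5.85% and 7.13%. Promoters of genes that fell as far held them in 5.58%, 6.37% and 5.98%. The AP-1 motif stood in 6.75% of promoters of these rising genes, 8.37% of the falling genes and 4.32% of all tested genes. The rising set includes guanylate-binding genes, whose copies share promoter sequence, and their part in these shares was not tested. A match is a description of letters, not a measured site.

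Receptors and signalling proteins of the pathways shifted in a mixed way. Of 18 cytokine receptors, kinases and STATs tested, 9 rose and 1 fell, with a median log2 change of 0.27 (0 for all tested genes). The shares over all tested genes, 23.5% higher and 24.2% lower, are the background for this count and for those of the lists below. Ifngr1, the ligand-binding chain of the IFN-γ receptor, was the member that fell, from 138, 69.1 and 112 CPM to 64, 35.8 and 54.6 CPM. Its log2 change was -1.02 ± 0.083. Il2rg, the common γ chain shared by the IL-4 receptor, rose from 119 ± 31.3 to 208 ± 55.1 CPM. Il4ra, the IL-4-binding chain, was abundant at both times, at 1844 ± 439 and 2054 ± 360 CPM, and its change of 0.17 ± 0.187 was not called. Without the replicate block 5 members were higher and 0 lower, and on the deposited values 7 and 3.

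Among the 8 feedback inhibitors, Socs1 rose and Socs6 fell (1 higher and 3 lower on the deposited values), against 23.5% and 24.2% of all tested genes. Socs1, which blocks JAK kinases downstream of both receptors, measured 138, 156 and 147 CPM at 2 h and 256, 305 and 209 CPM at 4 h, against a mean of 0.89 CPM in untreated cells. The times did not overlap, and the log2 change was 0.78 ± 0.193. Cish, another STAT-induced member, measured 129, 71.6 and 113 CPM at 2 h and 165, 126 and 126 CPM at 4 h. These ranges overlapped and its change of 0.44 ± 0.207 was not called. Socs3, which acts mainly on signalling of the IL-6 family, stood at 278 ± 51.5 and 182 ± 85.8 CPM with a log2 change of -0.69 ± 0.286 (adjusted p = 0.058). Socs6 fell from 70.2 ± 13.5 to 43.3 ± 4.05 CPM, a call not kept without the block (adjusted p = 0.068).

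Of 13 interferon regulatory factors and partner factors tested, 10 rose and 1 fell, with a median log2 change of 0.47. Without the block 4 were higher and 0 lower. Irf8, a lineage and IFN-γ-response factor, measured 673, 381 and 532 CPM at 2 h and 1471, 1057 and 1066 CPM at 4 h. The times did not overlap, and Irf8 changed by 1.20 ± 0.098. Irf4, the member known as an IL-4 target, measured 57.3, 41.8 and 56.6 CPM at 2 h and 154, 65.2 and 126 CPM at 4 h, so that replicate 2 changed least. Its log2 change was 1.06 ± 0.177. Batf3, known from dendritic cell development, rose from 46.5 ± 8.65 to 111 ± 14.4 CPM, a log2 change of 1.24 ± 0.164. Irf1 was already at 2115, 1418 and 1991 CPM at 2 h and stood at 2794, 2069 and 2404 CPM at 4 h. The ranges overlapped, and its small rise of 0.41 ± 0.097 was called only with the block (adjusted p = 0.36 without it).

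Of 20 AP-1, C/EBP, EGR and KLF factors 11 rose and 0 fell, and 6 were higher without the block. Cebpa, a factor of myeloid differentiation, measured 69.8, 38.2 and 74.3 CPM at 2 h and 201, 163 and 194 CPM at 4 h, and its log2 change of 1.65 ± 0.199 was the largest of the list. Cebpb, a factor of the inflammatory response, rose from 16.5 ± 4.25 to 40.2 ± 10.5 CPM, and Junb, an AP-1 subunit, from 37.5 ± 8.49 to 84.9 ± 22.7 CPM. Both had started near the untreated levels of 15.9 and 40 CPM.

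Of 23 immediate early and mRNA-decay genes 10 rose and 1 fell. Zfp36l2, an RNA-binding protein that promotes mRNA decay, measured 32.4, 24.5 and 40.6 CPM at 2 h and 124, 166 and 166 CPM at 4 h. It had stood at a mean of 281 CPM in untreated cells and its rise was 2.21 ± 0.262. Gadd45b, a stress-response protein, rose from 23.4 ± 3.81 to 59.5 ± 16.2 CPM. Plk2, a kinase of the cell cycle, fell from 156 ± 49.9 to 70.3 ± 31.8 CPM, with an adjusted p of 0.052 without the block. Without the block this list held 4 higher and 0 lower.

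NF-κB subunits, inhibitors and targets numbered 20, of which 10 rose and 1 fell, with a median log2 change of 0.42. Inhibitors of the pathway led the list. Nfkbie, which encodes IκBε, measured 17.6, 5.87 and 13.8 CPM at 2 h and 66.6, 27 and 31.7 CPM at 4 h, with replicate 1 the highest. Its log2 change was 1.68 ± 0.181. Nfkbib, which encodes IκBβ, rose from 20.7 ± 0.541 to 45 ± 4.27 CPM, a change of 1.08 ± 0.138. Icam1, an adhesion molecule, measured 491, 256 and 447 CPM at 2 h and 1171, 571 and 781 CPM at 4 h, a change of 1.07 ± 0.148. Without the block 2 members of the list were higher, and Nfkbie and Icam1 had adjusted p of 0.059 and 0.12.

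Guanylate-binding proteins and immunity-related GTPases, which attack the vacuoles of intracellular pathogens, moved furthest of the lists. Of 20 tested, 17 rose and 0 fell, with a median log2 change of 1.64, and 14 rose without the block. Their summed level ran from 5027 to 7837 CPM at 2 h and from 12303 to 23465 CPM at 4 h. Gbp4 (chr5:105115767-105139586) measured 24.6, 24.2 and 35.6 CPM at 2 h and 304, 239 and 344 CPM at 4 h. Its log2 change of 3.35 ± 0.207 was the largest of the list. Gbp6 measured 52.7, 38.3 and 52.3 CPM at 2 h and 331, 203 and 296 CPM at 4 h, a change of 2.49 ± 0.296. Tgtp1, a T-cell-specific GTPase family member, measured 13.4, 7.64 and 14.8 CPM at 2 h and 124, 38.4 and 109 CPM at 4 h. Irgm1 was not called and was already at 1775, 1139 and 1528 CPM at 2 h, against 2176, 1404 and 1752 CPM at 4 h. Several of these genes have near-identical copies, and how reads were divided among them is not given in the sources used here, so single values are uncertain.

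Some genes that rose strongly lay near each other. Of 337 genes that rose by a log2 change of at least 1 and had a position, 65 (19.3%) lay within 100 kb of another, against 27 of 257 (10.5%) for the genes that fell as far. There were 8 stretches of 3 or more such neighbours among the rising genes and 1 among the falling genes. The longest, on chromosome 5 from 105014150 to 105346472, held 6 guanylate-binding proteins (Gbp8, Gbp9, Gbp4, Gbp10, Gbp6 and Gbp11), and all 6 genes tested in it rose this far. On chromosome 3 from 142560026 to 142638008, Gbp3, Gbp2b and Gbp2 did so. On chromosome 17 from 34119541 to 34216321, H2-DMa, Psmb9, Tap1, Psmb8 and Tap2 did so, which is 5 of the 6 tested genes of that stretch of the major histocompatibility complex. Serpina3f, Serpina3g, Serpina3h and Serpina3i, 4 of 4 tested genes, formed a stretch on chromosome 12. Naaa, Cxcl9 and Cxcl11 were 3 of 5 tested genes of a stretch on chromosome 5, and a stretch around Tgtp1 on chromosome 11 had 5 of 9. The share of all tested genes with such a neighbour was not computed. These genes are named by position, and many are copies of each other, and the part of shared reads was not tested.

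Of 12 promoters for 11 genes of the guanylate-binding and immunity-related GTPase list, 6 held the gamma-activated site and 10 (83.3%) the interferon-response core, against 6.03% and 6.41% of promoters of all tested genes. The STAT6 form stood in 1 (8.33%) and the AP-1 motif in 3 (25%), against 4.78% and 4.32%. Gene copies share promoter sequence, so these promoters are not independent.

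Antigen presentation on MHC class I rose with little exception: of 19 genes tested 18 rose and 0 fell, with a median log2 change of 1.09. Tap2, a subunit of the peptide transporter into the endoplasmic reticulum, measured 118, 87.3 and 146 CPM at 2 h and 365, 270 and 384 CPM at 4 h. Its change was 1.54 ± 0.149. Psmb10, a catalytic subunit of the immunoproteasome, measured 142, 123 and 130 CPM at 2 h and 359, 385 and 351 CPM at 4 h, a change of 1.47 ± 0.092. Tapbpl, a peptide editor, rose from 55 ± 12.3 to 141 ± 24.9 CPM. H2-T24 was the member not called, at 108 ± 8.82 and 150 ± 0.814 CPM (adjusted p = 0.11).

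In MHC class II the activator moved more than most of the genes it acts on. Of 10 genes tested 4 rose and 0 fell, with a median log2 change of 0.28, and 2 rose without the block. Ciita, the master activator of class II genes, measured 17.8, 4.26 and 13.6 CPM at 2 h and 73.3, 30.7 and 63.6 CPM at 4 h, with replicate 2 the lowest at both times. The times did not overlap, and the change was 2.24 ± 0.106 (adjusted p = 2.3e-09). H2-DMa, which loads peptides onto class II, rose from 29.2 ± 8.01 to 82.7 ± 17.8 CPM. Cd74, the invariant chain, measured 460, 72 and 161 CPM at 2 h and 545, 147 and 256 CPM at 4 h. The replicates spread over several fold at each time, and its rise of 0.64 ± 0.131 was called only with the block (adjusted p = 0.68 without it). Ctss, the protease that trims the invariant chain, stood at 2822 ± 293 and 2947 ± 230 CPM and was not called.

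Of 33 genes usually listed as type I interferon antiviral genes, 18 rose and 2 fell, with a median log2 change of 0.66. Without the block 4 were higher and 0 lower. Zbp1, a sensor of nucleic acids, measured 184, 150 and 116 CPM at 2 h and 448, 513 and 393 CPM at 4 h, a change of 1.6 ± 0.306. Herc6, a ligase that attaches ISG15 to proteins in mice, rose from 103 ± 11 to 296 ± 16 CPM. Isg15 itself rose from 70 ± 27.4 to 175 ± 80 CPM, with an adjusted p of 0.17 without the block. Parp14, abundant at 1562 ± 334 and 1921 ± 349 CPM, was not called.

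**Figure D3:**
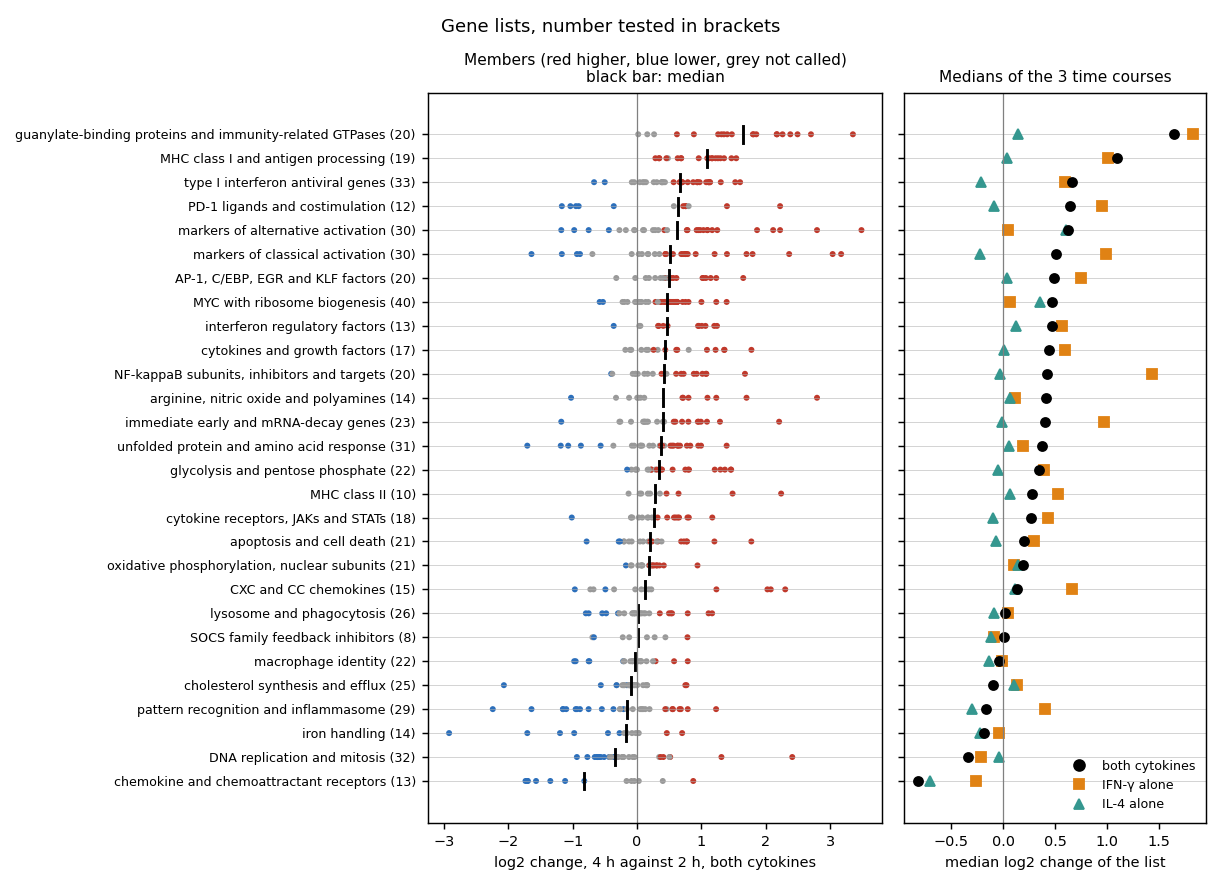
Left, the log2 change from 2 h to 4 h of both cytokines for every tested member of each gene list (red higher, blue lower, grey not called; black bar, median). Right, the list medians in the time courses of both cytokines, IFN-γ alone and IL-4 alone; the guanylate-binding list has medians of 1.64, 1.82 and 0.14, and the NF-κB list 0.42, 1.43 and -0.03.

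Of 15 chemokines 4 rose and 2 fell, and without the block 3 and 0. Of all tested genes 23.5% rose and 24.2% fell, so these counts do not set the chemokines apart. Cxcl9, a ligand of CXCR3 that recruits T cells, measured 577, 254 and 515 CPM at 2 h and 3101, 830 and 1997 CPM at 4 h. Replicate 2 was lowest at both times, the times did not overlap, and the change of 2.03 ± 0.264 had an adjusted p of 2.2e-05 (0.058 without the block). Cxcl10, another CXCR3 ligand, was already at 2136, 1782 and 1720 CPM at 2 h and stood at 2772, 2222 and 1683 CPM at 4 h. The times overlapped, and its change of 0.22 ± 0.231 was not called. Ccl24, an eosinophil chemoattractant of alternative activation, measured 107, 52.4 and 91.1 CPM at 2 h and 708, 223 and 399 CPM at 4 h, a change of 2.30 ± 0.198. Ccl8, another CC chemokine, rose from 40.7 ± 15.9 to 173 ± 54 CPM. On the deposited values 4 chemokines were higher and 4 lower.

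Of 17 cytokines and growth factors 9 rose and 0 fell, with 4 higher without the block and 6 on the deposited values. Tnfsf10, the death ligand TRAIL, measured 44.9, 46.9 and 38.2 CPM at 2 h and 144, 154 and 154 CPM at 4 h, a change of 1.78 ± 0.219. Vegfa, a ligand of the receptor that Flt1 encodes, rose from 10.2 ± 4.1 to 26.2 ± 2.69 CPM, below the untreated mean of 56.6 CPM. Tnf measured 19.7, 7.22 and 11.7 CPM at 2 h and 57.3, 20.4 and 28.2 CPM at 4 h. Its rise of 1.36 ± 0.297 was called only with the block (adjusted p = 0.12 without it). Igf1, at 860 ± 218 and 819 ± 300 CPM, was not called.

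Of 13 receptors for chemoattractants 7 fell, 1 rose and 5 were not called, with a median log2 change of -0.82, and 4 were lower without the block. Ccr1 measured 57.2, 161 and 50 CPM at 2 h and 20.7, 43.7 and 12.4 CPM at 4 h, with replicate 2 the highest at both times. Its change was -1.74 ± 0.159 (adjusted p = 0.058 without the block). Cx3cr1, the fractalkine receptor, fell from 10.4, 12.1 and 10.2 CPM to 1.3, 6.25 and 1.88 CPM. S1pr1, a receptor for sphingosine 1-phosphate, fell from 6.17 ± 0.956 to 1.2 ± 0.153 CPM, after a mean of 108 CPM in untreated cells. The complement receptor C3ar1 stood at 958 ± 123 and 926 ± 73.2 CPM and was not called. In bulk RNA, fewer cells carrying a transcript and less of it per cell cannot be told apart.

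Of 30 markers of alternative activation 16 rose and 4 fell, with a median log2 change of 0.62. Without the block 10 were higher and 2 lower. Pdcd1lg2, the PD-1 ligand PD-L2 (chr19:29410919-29471161), measured 55.7, 34.4 and 50.2 CPM at 2 h and 268, 195 and 198 CPM at 4 h, a change of 2.22 ± 0.196. Arg1, the arginase that competes with nitric oxide synthase for arginine, measured 1.11, 2.07 and 0.893 CPM at 2 h and 10.2, 38.6 and 8.27 CPM at 4 h, with replicate 2 the highest. Its change was 2.80 ± 0.408. Retnla, a secreted marker of IL-4 action, was at 0.142, 0 and 0.0218 CPM at 2 h and at 1.5, 0.908 and 0.769 CPM at 4 h. The groups did not overlap, and its change of 0.95 ± 0.095 on the log2(CPM + 1) scale was 4.27 in edgeR, which works on reads. Flt1, described above, is also on this list, and the mannose receptor Mrc1, at 2873 ± 534 and 3422 ± 760 CPM, was not called.

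Markers of classical activation rose in a similar share, 17 of 30, and 4 fell, with a median log2 change of 0.51. Without the block 7 were higher and 2 lower. Nos2, the inducible nitric oxide synthase, measured 1.18, 0.543 and 0.871 CPM at 2 h and 6.76, 4.96 and 3.68 CPM at 4 h, a change of 1.70 ± 0.221 (2.61 in edgeR). Serpina3g, a protease inhibitor, was abundant and rose from 895, 710 and 757 CPM to 4430, 3756 and 3956 CPM. Its change was 2.36 ± 0.163, and near-identical Serpina3 copies make the level of this member uncertain. Irg1, the source of itaconate, measured 241, 145 and 113 CPM at 2 h and 372, 368 and 194 CPM at 4 h. Its rise of 0.91 ± 0.324 was called at an adjusted p of 0.031 and was not kept without the block (0.17), without the low-value filter (0.07), or without replicate 2 or 3 at 2 h (0.058 and 0.12) or replicate 2 at 4 h (0.17, with a change of 0.61). Slfn5, at 1737 ± 412 and 1942 ± 316 CPM, was not called.

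Arg1 and Nos2, which use the same substrate, thus both rose. Of 14 genes of arginine, nitric oxide and polyamines 7 rose and 1 fell. Srm, the spermidine synthase, rose from 13.4 ± 2.91 to 32.5 ± 3 CPM. Of 12 PD-1 ligands and costimulatory genes 5 rose and 5 fell (2 and 2 without the block). Cd40 measured 203, 112 and 173 CPM at 2 h and 533, 353 and 384 CPM at 4 h, a rise of 1.4 ± 0.17, while Cd80, a ligand of CD28 and CTLA-4, fell from 7.14, 4.8 and 5.36 CPM to 2.15, 2.12 and 1.68 CPM.

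Pattern recognition receptors and inflammasome genes fell more often than they rose, 12 against 7 of 29 tested, and without the block 7 and 2. For all tested genes the shares were 24.2% lower and 23.5% higher. Tlr13, which senses bacterial ribosomal RNA (chrX:106143204-106160493), measured 118, 192 and 96.2 CPM at 2 h and 18.5, 41.4 and 24.4 CPM at 4 h. The times did not overlap, and its change of -2.24 ± 0.118 followed a mean of 506 CPM in untreated cells. Clec4e, the receptor Mincle, fell from 54.6 ± 23.2 to 16.9 ± 7.49 CPM, with an adjusted p of 0.054 without the block. Tlr9, which senses DNA, rose from 54, 23 and 52.2 CPM to 101, 84.5 and 103 CPM. Clec7a, the receptor for β-glucan, was at 1042 ± 194 and 1127 ± 322 CPM and was not called. The co-receptor Cd14 fell from 281 ± 14.1 to 147 ± 38.6 CPM.

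Lysosomal and phagocytic genes showed no common direction, with 7 higher and 5 lower of 26 (6 and 7 on the deposited values, 4 and 0 without the block). Among all tested genes 23.5% rose and 24.2% fell, so these counts do not set the list apart. Fcgr4, an activating receptor for IgG, rose from 497, 391 and 375 CPM to 1082, 884 and 866 CPM. Tfeb, a regulator of lysosomal genes, rose from 10.5 ± 2.36 to 23.7 ± 3.23 CPM, below its untreated mean of 44.3 CPM. The scavenger receptor Msr1 fell from 150 ± 113 to 82.1 ± 55.1 CPM, a call made only with the block (adjusted p = 0.48 without it). The protease Ctsb, at a mean of 22817 and 21905 CPM, was not called.

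Iron handling genes fell in 6 of 14 and rose in 2 (3 and 0 without the block). Over all tested genes 24.2% fell and 23.5% rose. Slc40a1, the iron exporter ferroportin (chr1:45908068-45926523, minus strand), measured 64.3, 46.7 and 55.3 CPM at 2 h and 5.43, 8.64 and 5.48 CPM at 4 h. Its change was -2.92 ± 0.256. Hmox1, the heme oxygenase that releases iron from heme, fell from 211, 151 and 113 CPM to 47.3, 66.7 and 31.2 CPM. The ferrireductase Steap3 fell from 41 ± 17.6 to 17.8 ± 9.54 CPM (adjusted p = 0.078 without the block), and the ferritin light chain Ftl1, at 5517 ± 676 and 5620 ± 707 CPM, was not called.

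Of 25 genes of cholesterol synthesis and efflux 19 were not called, 4 fell and 2 rose (8 and 2 on the deposited values, 1 and 2 without the block). Abca1, which exports cholesterol to apolipoprotein, measured 165, 96.5 and 105 CPM at 2 h and 43.1, 26.9 and 17.8 CPM at 4 h, a change of -2.07 ± 0.19. Abcg1, which exports cholesterol to mature lipoprotein particles, rose from 209 ± 26.2 to 360 ± 79.7 CPM. Pmvk, an enzyme of the mevalonate pathway, rose from 46.2 ± 7.93 to 78.4 ± 12.4 CPM (adjusted p = 0.008, and 0.08 without the pair of replicate 3).

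Glycolysis and the pentose phosphate pathway rose in 14 of 22 genes and fell in 1, with 8 and 0 without the block. Slc16a3, the lactate exporter, measured 26.7, 37 and 18.1 CPM at 2 h and 73, 89.4 and 61.9 CPM at 4 h, a change of 1.46 ± 0.108. Pfkp, a phosphofructokinase, rose from 117 ± 28.9 to 318 ± 42.1 CPM, and Pfkfb3, which makes its allosteric activator, from 16.8 ± 5.03 to 44.8 ± 12.9 CPM. The untreated mean of Pfkfb3 was 47.6 CPM. Aldoa, an aldolase at 505 ± 78 and 478 ± 103 CPM, was not called. Nuclear genes of oxidative phosphorylation rose in 9 of 21 and fell in 1, mostly by small amounts (median 0.19). Cycs, cytochrome c, rose from 90.1 ± 32.4 to 168 ± 26.3 CPM. These small changes depended on scaling, with 3 higher and 2 lower on the deposited values and 1 and 0 without the block. Cox5a, at 74.5 ± 11.7 and 94.4 ± 6.66 CPM, was lost there (adjusted p = 0.069) and without the pair of replicate 3 (0.16). None of the 9 listed mitochondrially encoded genes is among the rows of the table.

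The genes of MYC and ribosome biogenesis rose in 27 of 40 and fell in 2, with a median of 0.47 and with 23 higher and 4 lower on the deposited values and 16 higher without the block. Myc itself was level, at 36.1, 27.5 and 29.6 CPM at 2 h and 40.2, 28.3 and 26.4 CPM at 4 h, with a change of 0.01 ± 0.117. Mnt and Mxd1, which encode partners of MAX that oppose MYC, led the list with Srm. Mnt rose from 10.2 ± 2.62 to 28.2 ± 5.2 CPM and Mxd1 from 14.7 ± 1.74 to 30.3 ± 1.98 CPM. Both were below their untreated means of 65 and 27.5 CPM at 2 h, and Mnt was still below its own at 4 h. Npm1, a nucleolar protein, was at 399 ± 86 and 343 ± 22.4 CPM and was not called.

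Genes of DNA replication and mitosis fell in 12 of 32 and rose in 5, with a median of -0.34, and without the block 0 fell and 1 rose. On the deposited values 14 fell and 3 rose. By comparison, 24.2% of all tested genes fell and 23.5% rose in the main fit. Mcm4, a helicase subunit, fell from 24.1, 49.4 and 20.9 CPM to 12.6, 20 and 12.8 CPM (adjusted p = 0.21 without the block). The cyclins of the G1 phase went the other way. Ccnd2 measured 3.64, 11.6 and 3.09 CPM at 2 h and 30.9, 47.9 and 22.1 CPM at 4 h, a change of 2.41 ± 0.249, and Ccnd1 rose from 22.8 ± 16.2 to 54.9 ± 30 CPM (adjusted p = 0.23 without the block). Replicate 2 was the highest at both times for all 3 genes. The cyclin-dependent kinase inhibitor Cdkn1a, at 520 ± 119 and 730 ± 139 CPM, was not called.

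Of 31 genes of the unfolded protein and amino acid response, 15 rose and 5 fell, with 6 and 4 without the block. Herpud1, a component of protein degradation at the endoplasmic reticulum, rose from 18.1, 19.2 and 28.3 CPM to 57.1, 38.5 and 88 CPM. Its untreated mean was 71.6 CPM. Srxn1, an antioxidant target of NRF2, fell from 38.1 ± 6.9 to 16.2 ± 3.67 CPM. Hmox1, which also belongs here and is another NRF2 target, fell as described above. Of 21 genes of apoptosis and cell death 9 rose and 3 fell, with 5 and 1 without the block. Bbc3, the pro-apoptotic protein PUMA, rose from 1.13, 2.69 and 3.18 CPM to 7.08, 12 and 11.6 CPM. Mlkl, the effector of necroptosis, rose from 61.1 ± 7.91 to 142 ± 13 CPM, and Ripk1, a kinase upstream of both routes, fell from 384 ± 66.9 to 222 ± 40.3 CPM.

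Macrophage markers were abundant, with a summed level of 31756 to 51700 CPM at 2 h and 33303 to 46869 CPM at 4 h. Of 22 tested 14 were not called, 3 rose and 5 fell (2 and 8 on the deposited values, 2 and 3 without the block), against 23.5% and 24.2% of all tested genes. Lyz2 stood at 17747 ± 5843 and 14988 ± 3486 CPM, a large part of the sum, and was not called. Cd163 fell from 17.9 ± 3.81 to 8.48 ± 0.684 CPM and Cd14 fell as given above, while Fcgr1 rose from 480 ± 71.7 to 824 ± 34.7 CPM. Markers of other cells were low. Neutrophil markers summed to 85 to 253 CPM at 2 h and 90.7 to 294 CPM at 4 h, endothelial markers to 80.9 to 137 and 72.2 to 111 CPM, erythroid and megakaryocytic markers to 34.8 to 91.4 and 33.7 to 72.9 CPM, and the B, T or NK, dendritic, mast and stromal lists to 24.3 CPM at most. Among tested members 1 of 9 neutrophil and 1 of 3 endothelial markers rose, and 1 T or NK and 1 endothelial marker fell. Their part in the results above was not tested.

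The largest falls took several genes close to 0. Nav2, a neuron navigator protein (chr7:48908716-49610090), measured 66.6, 75.8 and 58 CPM at 2 h, near the untreated mean of 79.5 CPM, and 5.18, 5.62 and 3.61 CPM at 4 h. Its change was -3.56 ± 0.174 (adjusted p = 2.8e-09). Zdhhc14, a protein palmitoyltransferase, measured 93.3, 34.3 and 75.2 CPM at 2 h and 4.81, 4.72 and 4.83 CPM at 4 h, so that replicates that differed at 2 h were alike at 4 h. Its change was -3.45 ± 0.211. Gpr162, an orphan receptor, fell from 46.5 ± 24 to 4.56 ± 0.383 CPM. Arhgap22, a regulator of small GTPases, fell from 17.2 ± 3.2 to 2.25 ± 0.917 CPM. Slc16a10, a transporter of aromatic amino acids, measured 50.2, 69.2 and 39.5 CPM at 2 h and 6.99, 13.4 and 6.71 CPM at 4 h, a change of -2.45 ± 0.189. Pitpnc1, a phospholipid transfer protein, fell from 31.3 ± 9.58 to 5.22 ± 1.55 CPM, and Abcd2, a peroxisomal fatty acid transporter, from 26 ± 7.65 to 4.55 ± 0.988 CPM. Lama3, a laminin chain, fell from 10.3 ± 2.77 to 0.997 ± 0.227 CPM and Samd4, an RNA-binding protein, from 8.36 ± 5.53 to 0.577 ± 0.271 CPM.

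The genes that fell strongly spanned more of the genome than tested genes in general. The 257 genes that fell by a log2 change of at least 1 had a median genomic span of 58.3 kb (quartiles 26.2 and 143 kb), and 36.6% spanned 100 kb or more. All tested genes had a median of 23.7 kb with 12% at 100 kb or more, and the genes that rose as far had 19.8 kb and 15.4%. In the pairs taken singly the median span of genes lower by at least 1 was 55.5, 43.5 and 63.2 kb for replicates 1, 2 and 3. Among tested genes under 5 kb 0.488% fell this far, among those of 100 to 200 kb 6.13%, and among those of 200 kb and over 8.55%. Strong rises were also frequent among the longest genes, at 5.77% of those of 200 kb and over, against 2.33% at 20 to 50 kb and 4.07% under 5 kb. Nav2 spans 701 kb. In the time courses that share no library with this one, strongly falling genes had medians of 51.2 kb under IFN-γ alone and 143 kb under IL-4 alone. Strongly rising genes had medians of 19.8 kb under IFN-γ alone and 49.4 kb under IL-4 alone. Spans come from the annotation and no test was made of them.

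**Figure D4:**
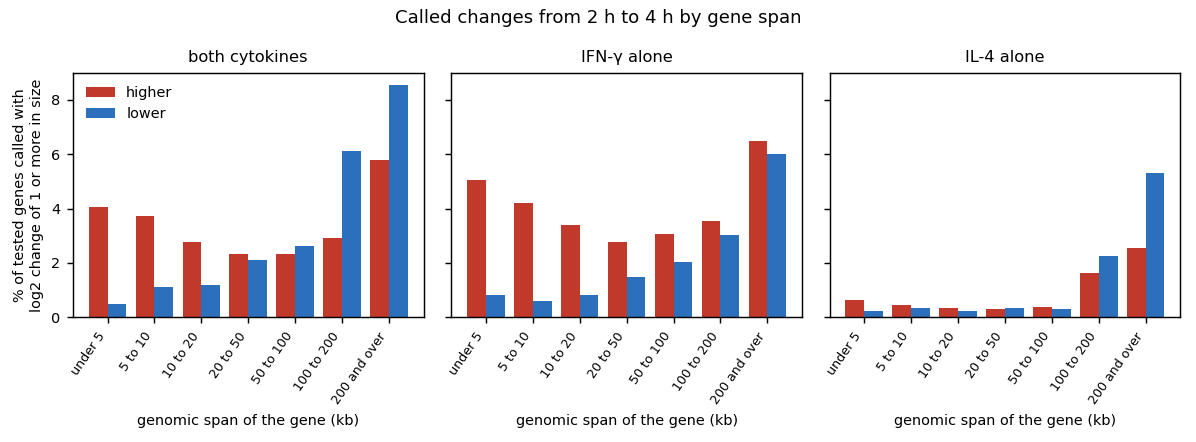
Share of tested genes (y axis, percent) called higher (red) or lower (blue) with a log2 change of at least 1 in size from 2 h to 4 h, by genomic span of the gene in kb (x axis), for both cytokines, IFN-γ alone and IL-4 alone. Under both cytokines the share that fell goes from 0.488% of genes under 5 kb to 8.55% of genes of 200 kb and over.

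The combined time course was then set against those of the single cytokines, which use other libraries. Under IFN-γ alone 2630 genes rose (23.1%) and 2588 fell (22.7%) between 2 h and 4 h, and under IL-4 alone 1074 rose (9.44%) and 1217 fell (10.7%). The change under both cytokines was more positive than under IFN-γ alone for 326 genes (2.86%) and more negative for 478 (4.2%). Against IL-4 alone these were 1331 (11.7%) and 1208 (10.6%), and on the deposited values 835 and 2379. On those values the IFN-γ time course had 1470 higher and 4395 lower, and the IL-4 time course 1328 and 957. The differences from IFN-γ alone depended on single pairs: 110 genes were called without replicate 1, 1614 without replicate 2, 21 without replicate 3, and 28 without the block. Leaving out the single library of replicate 1 at 2 h or at 4 h of both cytokines left 518 and 528. The differences from IL-4 alone numbered 837 without replicate 1, 519 without replicate 3 and 265 without the block.

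The 6 genes with the largest negative differences from IFN-γ alone all rose under IFN-γ alone. Under both cytokines Nos2 rose less, Clec4e fell and the other 4 were not called. Nos2 went from 2.8 ± 1.08 to 99.2 ± 50.3 CPM under IFN-γ alone, against 0.865 ± 0.32 to 5.13 ± 1.55 CPM under both, a difference of -2.92 ± 0.313 (adjusted p = 0.00011, and 0.012 without the block). Ccl5, a chemokine, went from 7.85 to 99.7 CPM under IFN-γ alone and stood at 14, 3.2 and 2.44 CPM at 2 h and 12.8, 4.37 and 3.27 CPM at 4 h under both, a difference of -3.24 ± 0.466. Marcksl1, Rasgef1b and Cxcl2 rose by 2.85, 2.72 and 2.71 under IFN-γ alone and were not called under both. Cxcl9 and Cebpb rose in both time courses, and their differences of -0.68 ± 0.374 and -0.14 ± 0.32 were not called. Clec4e rose by 1.06 under IFN-γ alone and fell under both, a difference of -2.70 ± 0.451. Of the 20 NF-κB genes 20 rose under IFN-γ alone, with a median of 1.43. For 15 the change under both was more negative, against 478 (4.2%) of all tested genes. Without the block this held for 0 of the list and for 9 of all tested genes. For the guanylate-binding list the medians were 1.64 under both and 1.82 under IFN-γ alone, and 1 of 20 differed. Of the 6 largest negative differences from IFN-γ alone, those of Ccl5, Rasgef1b, Clec4e, Marcksl1 and Cxcl2 were not called without the block (adjusted p from 0.13 to 0.53).

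In the other direction, Tmem26, a transmembrane protein, went from 3.76 ± 0.417 to 19.6 ± 2.21 CPM under both and stayed at 0.17 CPM under IFN-γ alone, a difference of 2.12 ± 0.182. Osbpl3, an oxysterol-binding protein, rose from 40.3, 37 and 47.9 CPM to 104, 88.4 and 93.9 CPM under both and fell by 0.75 under IFN-γ alone, a difference of 1.93 ± 0.174. Prr15 rose from 0.544, 1.29 and 1.37 CPM to 6.25, 15 and 13.8 CPM under both. It changed by 0.31 ± 0.151 under IFN-γ alone and 0.06 ± 0.151 under IL-4 alone, neither called, and its differences from them were 2.25 ± 0.213 and 2.50 ± 0.213. Apol7c was called higher in all 3 treatments. At 4 h it stood at 2.46 ± 3.18 CPM under IFN-γ alone, 6.57 ± 6.87 CPM under IL-4 alone and 63.9 ± 52.9 CPM under both. Replicate 1 was the highest in each, and neither single-cytokine rise was kept without the block (adjusted p = 0.39 for each). The difference of Apol7c from IFN-γ alone was 2.88 ± 0.389. That difference was not called in edgeR (adjusted p = 0.061), without the block (0.46) or without replicate 3 (0.11). Ccl24 and Arg1 differed by 2.06 ± 0.28 and 2.70 ± 0.577, and neither was kept without the block (0.51 and 0.38). Arg1 under IFN-γ alone was near 0 at both times, and edgeR did not call its difference (0.54).

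**Figure D5:**
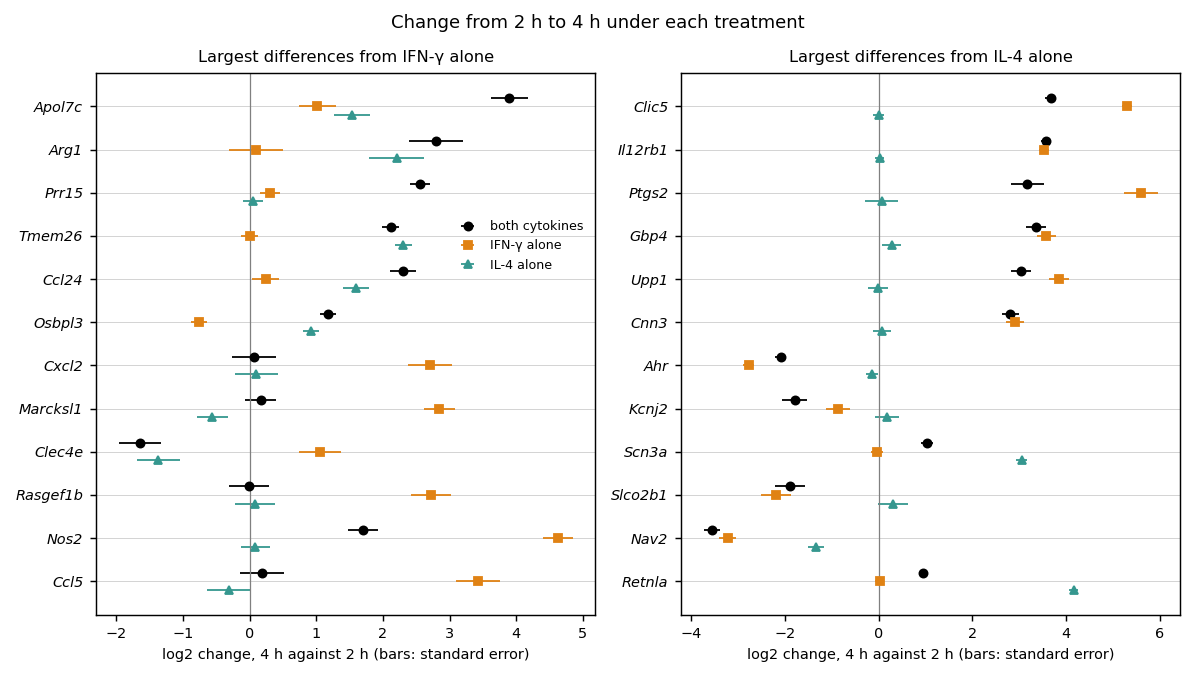
Log2 change from 2 h to 4 h under both cytokines (black), IFN-γ alone (orange) and IL-4 alone (green) for the genes with the largest differences between time courses, with bars of 1 standard error. Nos2 rises by 1.70 under both and 4.62 under IFN-γ alone, Il12rb1 by 3.56 and 3.53, and Retnla by 0.95 under both and 4.17 under IL-4 alone. Retnla at 2 h under both lay below the added 1 CPM, which understates its change, and edgeR did not call its difference.

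The 6 genes with the largest positive differences from IL-4 alone all rose under IFN-γ alone too. Il12rb1 changed by 3.56 ± 0.10 under both, 3.53 ± 0.10 under IFN-γ alone and 0.02 ± 0.10 under IL-4 alone, a difference from IL-4 of 3.54 ± 0.141. Clic5, Gbp4, Upp1, Cnn3 and Ptgs2 differed from IL-4 alone by 2.75 to 3.67, and Ptgs2 was not kept without the block (adjusted p = 0.21). Ahr, the aryl hydrocarbon receptor, was higher at 2 h than at 4 h. From an untreated mean of 8.49 CPM it stood at 187, 87.5 and 155 CPM at 2 h and fell to 44.2, 24.9 and 27.7 CPM at 4 h under both, a change of -2.09 ± 0.121. Under IL-4 alone it stood at 85.7 and 76.1 CPM, and the difference was -1.95 ± 0.172 (0.058 without the block). Under IFN-γ alone Ahr fell too, from 34.9 to 4.3 CPM, by more than under both (difference 0.68 ± 0.172, adjusted p = 0.026, and 1 without the block). Nav2 fell further under both than under IL-4 alone by 2.22 ± 0.246, and Kcnj2, a potassium channel, and Slco2b1, an organic anion transporter, fell under both and were not called under IL-4 alone (adjusted p of the difference 0.057 and 0.066 without the block). Nav2, Kcnj2 and Slco2b1 also fell under IFN-γ alone, by log2 changes of -3.22, -0.87 and -2.18, and their differences from it were not called.

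Retnla and Scn3a, a sodium channel, rose under both cytokines but to lower levels than under IL-4 alone. Retnla went from 1.49 ± 0.0874 to 43.8 ± 4.17 CPM under IL-4 alone, and its difference was -3.21 ± 0.134 on the log2(CPM + 1) scale. On reads in edgeR the difference was -0.62 and was not called (adjusted p = 0.62). The level under both at 2 h was below the added 1 CPM. Scn3a went from 2.89 to 31.5 CPM under IL-4 alone and from 0.832 to 2.76 CPM under both, a difference of -2.02 ± 0.174, and -1.74 in edgeR with an adjusted p of 0.00039.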

How the data were processed

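Poly(A) RNA was sequenced from TruSeq libraries, per the labels' protocols. Per the submitters' processing notes, the tools were TopHat2 2.1.0, HTSeq and edgeR on mm10 (GRCm38); the annotation, the use of strand and other settings are not given in the sources used here. The authors deposited CPM for 24421 genes in 21 libraries. All values (100%) were whole reads within 0.01 read.

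The 11380 genes that reached 1 CPM in 3 or more of the 21 libraries were rescaled by median ratio. log2(CPM + 1) of 18 treated libraries (6 groups of 3) was fitted with limma 3.58.1 in R 4.3.3, with the replicate number as a block (10 residual degrees of freedom), and p-values were adjusted by Benjamini-Hochberg over all tested genes. Factors for the 6 libraries ran from 0.929 to 1.1. Between 2 h and 4 h under both cytokines, deviations of same-numbered replicates correlated at 0.806, 0.821 and 0.703 and other pairs at 0.242 at most, so the numbers were taken as pairs; the labels state no shared animal or day. Replicates differed by more than sampling noise. edgeR 4.0.16 on recovered reads, other scalings, filters and pseudocounts, and leaving out libraries were the alternatives. The limma fit with the block was also run on simulated counts, with changes placed only in genes with many reads and with replicate effects built in. That run cannot speak for genes at low levels or for the use of the block.

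The members and gene lists were chosen with earlier results of these data known. Named were 18 preset genes, the 12 largest called rises and falls (mean CPM of at least 5 in a group, all 3 pairs agreeing in direction, predicted genes left out), the 3 called members with the largest change and the most abundant uncalled member of each list, and the 6 largest called differences in each direction for each single cytokine; some genes that the rule names are not reported here. GENCODE vM21 matched 23376 symbols and RefSeq synonyms 669 more. Promoters came from RefSeq tables of GRCm38.p6.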

Additional observations from a re-analysis of the deposited data

Results flagged for a closer look

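Each result here is a gene whose change from 2 h to 4 h under both cytokines differed from its change under a single cytokine, by a test of the difference itself in limma with the replicate block. Values are differences of log2 changes. Against IFN-γ alone the change was more positive for Apol7c (2.88), Arg1 (2.70), Prr15 (2.25), Tmem26 (2.12), Ccl24 (2.06) and Osbpl3 (1.93). It was more negative for Ccl5 (-3.24), Nos2 (-2.92), Rasgef1b (-2.73), Clec4e (-2.70), Marcksl1 (-2.68) and Cxcl2 (-2.64).

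Against IL-4 alone the change was more positive for Clic5 (3.67), Il12rb1 (3.54), Ptgs2 (3.11), Gbp4 (3.08), Upp1 (3.05) and Cnn3 (2.75). It was more negative for Retnla (-3.21), Nav2 (-2.22), Slco2b1 (-2.19), Scn3a (-2.02), Kcnj2 (-1.97) and Ahr (-1.95). Without the block, 8 of the listed differences from IFN-γ alone and 4 of those from IL-4 alone were not called. In edgeR the differences of Apol7c and Arg1 from IFN-γ alone and of Retnla from IL-4 alone were not called. Retnla at 2 h under both lay below the added 1 CPM.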

How the results depend on the processing

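Of 5425 calls from 2 h to 4 h under both cytokines, 1980 were kept without the replicate block (1034 higher, 946 lower), 4494 on deposited values (1741 higher, 3648 lower) and 2936 to 4642 when a replicate pair was left out. Other settings kept 4133 to 5397, and no called gene was called in the opposite direction under any setting. Leaving out replicates gave 1453 to 2753 higher and 1501 to 2734 lower. Differences called against IFN-γ alone numbered 804, with 28 without the block and 21 to 1614 with replicates left out, and against IL-4 alone 2539, with 265 and 519 to 2792. Changes whose sign turned with the processing were all of genes not called, and the cause was not tested. They turned on the deposited values for Myc (-0.098), Nfil3 (-0.061), Ctss (-0.049), Sat1 (-0.060), Clec7a (-0.022) and Ftl1 (-0.087); with TMM factors for Myc (-0.005); in edgeR for Myc (-0.004). With replicates left out, log2 changes ran over the following ranges: Myc -0.084 to 0.129, C3ar1 -0.077 to 0.005, Ctsb -0.152 to 0.019, Aldoa -0.164 to 0.003, Tnfaip2 -0.172 to 0.072, Igf1 -0.185 to 0.003, Sat1 -0.045 to 0.119, Ftl1 -0.112 to 0.137, Rasgef1b -0.186 to 0.195, Rn45s -1.085 to 2.488, Clec7a -0.109 to 0.312, Cxcl2 -0.103 to 0.257, Slfn5 -0.034 to 0.312, Ctss -0.020 to 0.119, Ccl5 -0.005 to 0.334, Marcksl1 -0.021 to 0.371 and Nfil3 -0.023 to 0.161. The fit of the 6 libraries alone gives no value for the differences between treatments. Without the block 19 called log2 changes of named genes and 12 of their called differences were lost, and 84 of the former were kept. Genes below about 1 CPM are limited by the added 1 CPM and by few reads.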
